A study of Mus musculus with 2 samples.

Results

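The genes described here are 10 erythroid regulators and carbonic anhydrases, given as a list and read out of the 32285 genes measured by droplet single cell RNA sequencing: Car1, Car2, Klf1, Gata1, Epor, Blvrb, Aqp1, Mfsd2b, Tal1 and Zfpm1. The list was drawn up with the levels of these genes in these libraries already known, so the differences between the libraries are given as a description, without a test. The cells were bone marrow LSK cells (Lin-Sca-1+c-Kit+, the fraction that holds the stem and multipotent progenitor cells of mouse marrow) from B6 mice 8 to 10 weeks old. The study compared LSK cells of chronic myeloid leukaemia (CML) mice with and without miR-142 to describe the leukaemic stem cells of the more aggressive disease, and deposited 1 library of miR-142+/+ BCR-ABL mice, called WT below, and 1 of miR-142-/- BCR-ABL mice, called KO.

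In both libraries the mice carried SCLtTA and BCR-ABL, an oncogene kept silent by tetracycline and switched on by its withdrawal, and cells were taken 2 weeks after induction. The transactivator is driven from regulatory sequence of SCL, which is another name for the listed gene Tal1, so BCR-ABL is induced in cells in which that sequence is active. The miR-142 deletion is in the germline and not limited to LSK cells, and the number of mice behind each library is not stated in the sources used here. With 1 library per group, the genotype and the library cannot be told apart, and every interval below is a 95% interval of counting error only.

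Red cell production starts from progenitors in which GATA1, KLF1 and the TAL1 complex switch on the genes of the red cell, while erythropoietin and its receptor EPOR keep the committed cells alive. Carbonic anhydrases, which interconvert carbon dioxide and bicarbonate, are among the abundant proteins of red cells, and their genes come on at different times along the lineage. Several of these genes are also used outside it: TAL1, FOG1 (the product of Zfpm1) and GATA1 act in megakaryocytes, GATA1 in mast cells and basophils, and TAL1 in stem cells.

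The microRNA removed in the KO mice and the control sequence of the listed genes are shown because they are what the genotype and the regulators act through. The mature forms of miR-142 lie on chromosome 11 of the mouse genome (RefSeq, GRCm38.p6, plus strand, 5p at chr11:87756867-87756887 and 3p at chr11:87756903-87756925), with the seed, bases 2 to 8, in capitals:
mmu-miR-142a-5p: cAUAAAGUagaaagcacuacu
mmu-miR-142a-3p: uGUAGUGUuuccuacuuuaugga
Of the 10 listed genes, 0 held a match to either seed (ACTTTAT for 5p, ACACTAC for 3p) in the longest annotated 3′ UTR, against 16.4% and 7.53% of 10901 genes. These UTRs were short, with a median of 424.5 bases against 1335 over those genes, and the letters alone say nothing about regulation by the microRNA.

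RefSeq promoter windows, from 250 bases before to 50 after the start of a transcript, were held for 8 of the 10 genes in 10 windows, and Car1 and Car2 are only named. Letters bound by GATA factors (AGATAA, the form AGATAG, the form TGATAA or the form TGATAG, on either strand) were in 4 of the 10 windows, against 29.8% of 32851 promoters. The CACCC-type letters bound by KLF factors (CCNCNCCC on either strand) were in 7 windows, against 49.5%, and an E-box of the kind bound by TAL1 dimers (CAGNTG on either strand) was in 5, against 51.4%. In the lines below the capitals mark the matched letters, read 5′ to 3′ on the strand of the gene, and some KLF matches of Epor and Tal1 overlap each other:
Klf1 GATA: ttgcctgggtcTTATCAgggaagacagc
Epor GATA: gtggctgtagcTTATCTgtccccagcct
Tal1 GATA: tatagagtcttTTATCTttgagcaattc
Epor KLF: tctgctgtctgCCCCACCCcctacactggt
Gata1 KLF: cccctgcactgCCCCACCCactggggcacc
Mfsd2b KLF: gcacaatgggaCCACGCCCacttggccaga
Zfpm1 KLF: ctacgcgaaggCCCCGCCCgcctggccagc
The GATA letters of Klf1 began at -80 from the transcript start (chr8:84901891-84901918, plus strand), those of Epor at -54 (chr9:21963614-21963641, minus strand) and those of Tal1 at -205 (chr4:115056210-115056237, plus strand). The KLF letters began at -124 in Epor (chr9:21963682-21963711, minus strand), -55 in Gata1 (chrX:7967947-7967976, minus strand), -53 in Mfsd2b (chr12:4874394-4874423, minus strand) and -32 in Zfpm1 (chr8:122282098-122282127, plus strand). The GATA letters of Blvrb, at -196 in the second of its windows, read accagatcttcTGATAGagccacaaggg (chr7:27452211-27452238, plus strand). A match describes the sequence and was not tested as a binding site here.

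Cells were taken as barcodes with at least 8000 UMIs (unique molecular identifiers, 1 for each captured RNA molecule) and under 10% mitochondrial UMIs, which left 5363 WT and 5458 KO cells. Their median depth was 19443 UMIs in WT and 24181.5 in KO, and 4 cell barcodes were shared by the libraries. The host transcript of the deleted microRNA, Mir142hg, had 1260 UMIs in WT and 20 in KO, in the direction of the labels. Kit, which encodes the c-Kit of the sort, stood at 86.4 CPM (UMIs per 1000000 UMIs of the cells summed) in WT and 68.3 in KO. Cd34, which was not a marker of the LSK sort, was at 255 and 199.2. Ly6a, which encodes Sca-1, was at 96.8 and 153 CPM, a log2 ratio of 0.66. Of 10 genes of late red cells, 3 reached a mean of 1 CPM: Hbb-bt (8423 UMIs in WT and 18203 in KO), Bpgm (2224 and 1983) and Hba-a1 (87 and 490). At the other end, Alas2, the erythroid enzyme of haem synthesis, had 1 UMI in each library, and Slc4a1, the anion exchanger of the red cell, had 0 in both, which allows up to 0.0267 CPM in WT and 0.0233 in KO.

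Over all cells, the 10 genes were lower in the KO library, with a median log2 ratio of KO over WT of -0.94 against -0.12 over the 11645 genes with a mean of at least 1 CPM. At least 1.5-fold lower were 9 of the 10, all except Blvrb, where 12.2% of all genes were that much lower and 4.02% that much higher. The intervals of all 10 ratios lay below 0, as did those of 55.4% of all genes, since sums over this many cells have little counting error. Blvrb, at 1.43-fold, was just outside the limit of 1.5, and Tal1, at 1.52-fold, just inside. In a sum over cells, fewer cells of a type and less RNA per cell cannot be told apart, and the 2 libraries differed in cell mix: cells passing the gate for neutrophil granule genes, described below, took up 17.5% of the UMIs of the WT library and 48.2% of those of the KO library.

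**Figure D1:**
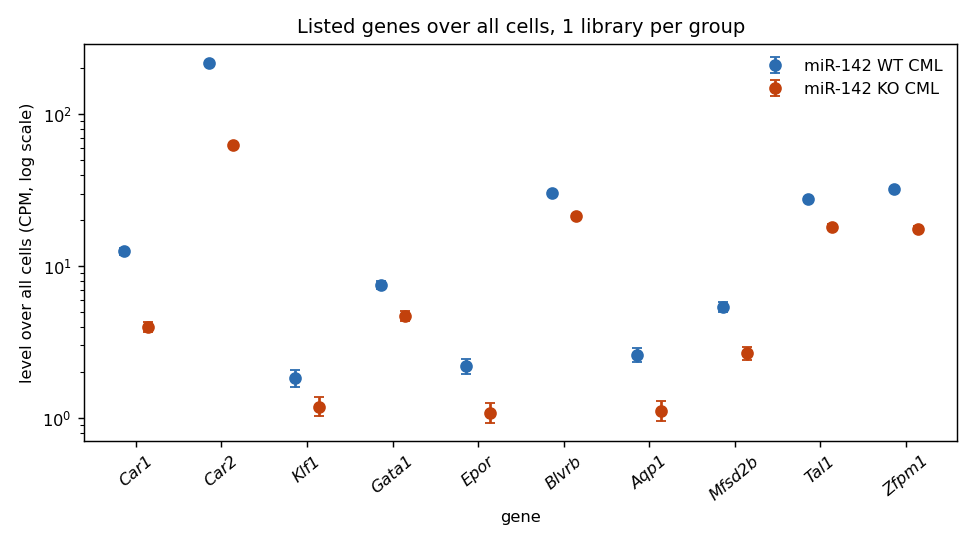
Level of each listed gene over all cells in CPM on a log axis, with 95% Poisson intervals, for the WT and the KO library. All 10 KO points lie below the WT points, from 218 against 62.6 CPM for Car2 to 30.4 against 21.3 CPM for Blvrb, and many intervals are smaller than the symbols.

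Among the carbonic anhydrases, Car2, the high-activity cytosolic enzyme (ENSMUSG00000027562, chr3:14886273-14900770, plus strand; all gene positions are from GENCODE M21 on GRCm38), had 30140 UMIs in WT and 9924 in KO, or 218 and 62.6 CPM. The log2 ratio was -1.80 (-1.83 to -1.77), a 3.48-fold lower level. Car1, the low-activity cytosolic enzyme of red cells (ENSMUSG00000027556, chr3:14766216-14808368, minus strand), had 1725 and 629 UMIs, or 12.5 and 3.97 CPM, with a log2 ratio of -1.65 (-1.79 to -1.52). Without cells over 2 times the median UMIs or in several of the marker gates described below, an alternative aimed at doublets, the ratio of Car1 was -0.74 (-0.90 to -0.59). These genes were spread over cells in opposite ways: Car1 UMIs were in only 60 WT and 22 KO cells, with up to 405 and 228 UMIs in 1 cell, whereas Car2 UMIs were in 4597 and 3508 cells. A processed pseudogene, Gm16399, overlaps Car1 on the same strand, so its count is less certain.

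Gata1, the zinc finger factor at the head of the erythroid programme (ENSMUSG00000031162, chrX:7959260-7978071, minus strand), had 1032 UMIs in WT and 742 in KO, or 7.47 and 4.68 CPM, a log2 ratio of -0.67 (-0.81 to -0.54). Klf1, which switches on adult globin and red cell membrane genes (ENSMUSG00000054191, chr8:84901928-84905291, plus strand), had 252 and 188 UMIs, or 1.82 and 1.19 CPM, a log2 ratio of -0.62 (-0.90 to -0.34). Both factors were thus detected sparsely in these LSK cells, Klf1 in 149 WT and 152 KO cells.

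Zfpm1, whose product FOG1 binds GATA1 as a cofactor (ENSMUSG00000049577, chr8:122282141-122337251, plus strand), was at 32.3 CPM in WT and 17.6 in KO, a log2 ratio of -0.88 (-0.94 to -0.81). Tal1, the partner of LMO2 and LDB1 in the complex that joins GATA factors (ENSMUSG00000028717, chr4:115056426-115071755, plus strand), was at 27.7 and 18.2 CPM, a log2 ratio of -0.61 (-0.68 to -0.54). Both were far more widely detected than Gata1, with UMIs in 2386 and 1745 cells for Zfpm1 and in 2461 and 1993 for Tal1. The annotated gene Gm20388 overlaps Zfpm1 on the same strand, so reads of the pair may be shared.

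Epor, the erythropoietin receptor (ENSMUSG00000006235, chr9:21958897-21963506, minus strand), had 302 UMIs in WT and 172 in KO, or 2.19 and 1.09 CPM, a log2 ratio of -1.01 (-1.29 to -0.73). Aqp1, the water channel of the red cell membrane (ENSMUSG00000004655, chr6:55336432-55348555, plus strand), had 361 and 176 UMIs, or 2.61 and 1.11 CPM, a log2 ratio of -1.23 (-1.50 to -0.97). Mfsd2b, which exports sphingosine 1-phosphate from red cells and platelets (ENSMUSG00000037336, chr12:4862440-4874359, minus strand), had 743 and 423 UMIs, or 5.38 and 2.67 CPM, a log2 ratio of -1.01 (-1.19 to -0.84). The transcripts of these 3 membrane proteins, summed over all cells, therefore stood 2.01-fold to 2.35-fold lower in KO. Blvrb, biliverdin reductase B, a flavin reductase abundant in red cells (ENSMUSG00000040466, chr7:27447978-27466144, plus strand), was at 30.4 and 21.3 CPM, and its log2 ratio of -0.52 (-0.58 to -0.45) was the smallest of the 10.

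The share of cells with a UMI was compared after each cell was thinned at random to 8000 UMIs, since the libraries differ in depth. Car2 was detected in 69.3% of WT and 39.3% of KO cells, with 11.2% and 13.3% in cells of the granule gate. Over all cells the median of Car2 was 2 UMIs per thinned cell in WT and 0 in KO. At least 5 UMIs were found in 1071 WT cells (19.97%) and 160 KO cells (2.93%). The difference in Car2 was therefore one of many cells and not of a few. Before thinning, Car2 was detected in 85.7% of WT and 64.3% of KO cells.

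Zfpm1 was detected in 25.8% of WT and 17.2% of KO thinned cells, Blvrb in 24.0% and 17.8%, and Tal1 in 23.1% and 16.4%. In the granule gate the shares were 0.798% and 3.84% for Zfpm1, 5.05% and 8.09% for Blvrb, and 7.98% and 7.67% for Tal1, so that all 3 lay above that level in both libraries. Gata1 was detected in 6.004% and 4.98%, Mfsd2b in 4.14% and 2.91%, Aqp1 in 2.52% and 1.19%, and Epor in 2.42% and 1.36%. Car1 was found in 0.690% and 0.293% of thinned cells. Klf1 had a share of 1.10% in WT (0.838 to 1.42) and 1.08% in KO (0.824 to 1.39): no difference was detectable at this depth. The summed level of Klf1 in thinned cells did not differ beyond counting error either, with a log2 ratio of 0.040 (-0.47 to 0.55), while its level was lower in KO in the sum at full depth.

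Cells with several of the genes were less frequent in KO. At least 1 of the 10 genes was detected in 80.1% of WT and 59.0% of KO thinned cells, at least 3 in 20.9% and 10.0%, and at least 5 in 148 (2.76%) and 101 cells (1.85%). All 10 were detected in 1 WT cell, and in KO the most was 9, also in 1 cell. Cells with at least 7 genes numbered 19 and 12. Cells of WT thus outnumbered those of KO at each of these steps, with few cells at the upper end.

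The genes also differed in how far they were concentrated. The 1% of cells with the most UMIs of a gene, 54 in WT and 55 in KO, held 99.7% and 100% of the Car1 UMIs, 62.3% and 48.4% of those of Klf1, 46.0% and 65.3% of those of Aqp1, and 42.1% and 50% of those of Epor. For Car2 they held 7.80% and 9.02%, for Tal1 6.95% and 9.46%, and for Zfpm1 9.99% and 12.4%. Car1 was therefore a gene of very few cells in both libraries, and Car2, Tal1 and Zfpm1 were genes of the general LSK population. Across thinned cells (log scale, 5363 WT and 5458 KO cells of 1 library each, so that the cells of a library share its RNA background), Car1 had a Pearson r of 0.37 with Klf1 in WT and 0.23 in KO, and of 0.27 and 0.35 with Aqp1. Its r with Tal1 was 0.01 and -0.00. Gata1 and Mfsd2b had 0.29 and 0.27, and Car2 and Zfpm1 had 0.31 and 0.28.

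To place the genes among cell types, cells were gated on lists of marker genes that hold none of the 10: a marker counted when its thinned count reached 1 UMI and at least 2 times its mean over both libraries, and 3 markers put a cell in a gate. A gate is a range on a scale, not a cell type. Of the 166 WT and 51 KO cells that passed the erythroid gate, 138 and 42 were exactly at 3 markers, and 623 and 346 cells were 1 marker short of it. Gates were also made for megakaryocyte, haematopoietic stem cell (HSC), lymphoid, granule, mast cell and basophil, innate lymphoid and antibody B genes. Cells that passed several gates, and cells that passed none, made up the remainder. The latter are called cycling where at least 3 of 12 cycling genes counted by the same rule, and non-cycling otherwise. Non-cycling cells still held a median of 2 UMIs of the cycling genes per thinned cell in both libraries.

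The erythroid gate alone held 108 WT cells (2.01%) and 20 KO cells (0.366%). Of its 19 markers 5 reached a mean of 1 CPM, and 3 of these (Cnrip1, Hemgn and Ctse, named after their values were seen) were themselves more than 1.5-fold lower over the KO cells, so the difference in cell number rests on those markers and is not read further. The list of late red cell genes had a median of 0 UMIs per thinned cell of the gate in WT and 1 in KO, with means of 0.935 and 8.35, while the granule list had medians of 18 and 25. Hbb-bt was at 67.7 CPM in the WT and 979 in the KO cells of the gate, and Hba-a1 at 0.989 and 241, from 2 and 78 UMIs. After thinning, Hba-a1 was detected in 5% and Hbb-bt in 30% of the 20 KO cells of the gate. In WT these shares were 0% and 19.4%. The most UMIs in any cell of the KO library were 78 for Hba-a1 and 229 for Hbb-bt. The globin sums of the KO gate may thus rest largely on 1 cell, and their part in the levels below was not tested.

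Within that gate, Car1 was at 751 CPM in WT and 1038 in KO, and Car2 at 756 and 707. Klf1 was at 48.4 and 80.3, Gata1 at 48.9 and 55.6, and Aqp1 at 43.0 and 111. Epor was at 25.7 and 30.9, Mfsd2b at 36.6 and 74.1, Blvrb at 209 and 334, Tal1 at 42.5 and 55.6, and Zfpm1 at 98.9 and 114. With only 20 KO cells these pairs are set side by side without a comparison. A single KO cell held 228 of the 336 Car1 UMIs of the gate, and the cells with the most held 19 of 26 for Klf1 and 23 of 36 for Aqp1.

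The erythroid gate held 88.1% of the Car1 UMIs of WT and 53.4% of those of KO. It held 38.9% and 13.8% of the Klf1 UMIs and 24.1% and 20.5% of those of Aqp1, but only 5.08% and 2.31% of the Car2 UMIs and 2.25% and 0.626% of those of Tal1. Non-cycling cells of no gate held 35.1% of the Car2 UMIs of WT and 31.6% of those of KO, the largest share of any group. The label of the list therefore fits Car1, and in WT Klf1 in part, whereas most Car2, Tal1 and Zfpm1 UMIs came from LSK cells without 3 erythroid markers.

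**Figure D2:**
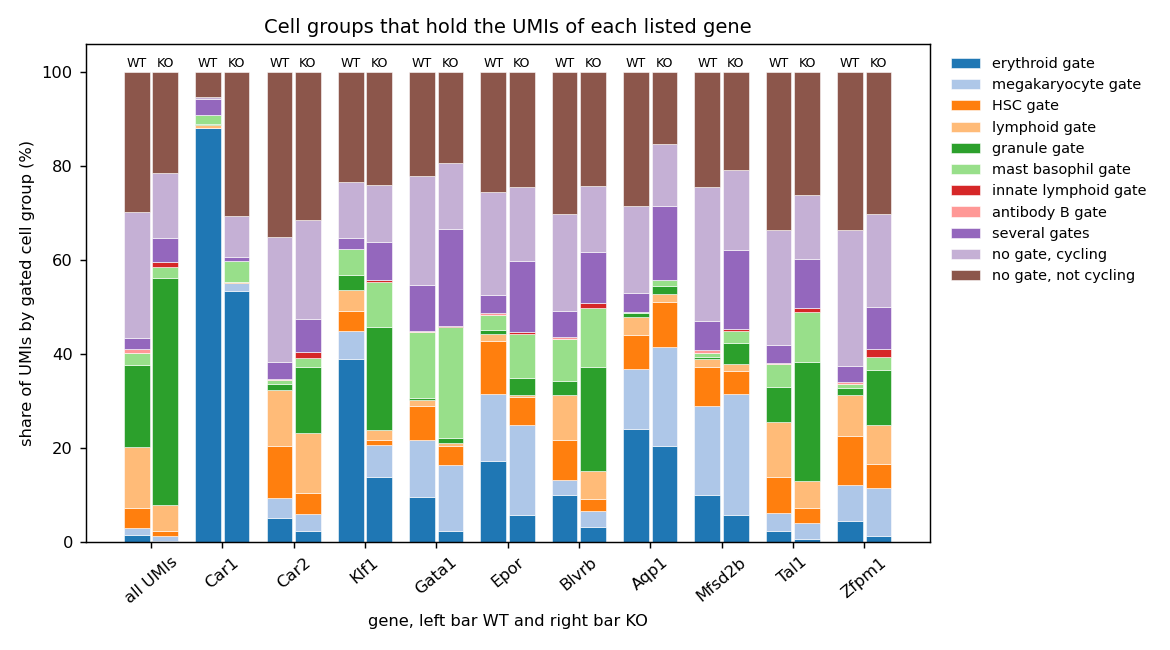
Share of the UMIs of all genes and of each listed gene, in percent, that came from each gated cell group, with WT as the left bar and KO as the right bar of each pair. The erythroid gate holds 88.1% and 53.4% of Car1 but 5.08% and 2.31% of Car2, and the granule gate holds 17.5% and 48.2% of UMIs overall.

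Inside the gates the 10 genes went different ways. Of 80 pairs of a gene and a group with at least 50 cells in both libraries, 61 had at least 30 UMIs, and of these 27 had a ratio whose interval lay below 0 and 9 above. Over all genes, 24.2% of such pairs lay below 0 and 15.0% above. The median log2 ratio of the 77 pairs with UMIs in both libraries was -0.26, against -0.94 for the sums over all cells.

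Car2 was the gene that was lower in most groups, with intervals below 0 in 7 of 8. In the megakaryocyte gate (100 WT and 91 KO cells) it was at 619 CPM in WT and 230 in KO, a log2 ratio of -1.43 (-1.60 to -1.26). In the HSC gate (408 and 142 cells) it was at 580 and 260, a log2 ratio of -1.16 (-1.30 to -1.01). Car2 was thus highest in the HSC, megakaryocyte and erythroid gates. It was lower in KO in the HSC and megakaryocyte gates, which had enough cells to compare. Markers of these 2 gates differed between the libraries as well, as given below.

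In cells of no gate, Car2 was at 215 and 94.8 CPM in the cycling group (-1.18) and at 258 and 92.1 in the non-cycling group (-1.49). In cells of several gates it was at 353 and 85.1 (-2.05), in the lymphoid gate at 199.4 and 141 (-0.50), and in the mast cell and basophil gate at 66.3 and 48.3 (-0.46). The exception was the granule gate, where Car2 was at 16.5 and 18.5 CPM, a log2 ratio of 0.17 (0.005 to 0.33). The level of Car2 in this gate was the lowest of the 8 in both libraries. The free RNA of the droplets, read from barcodes of 10 to 100 UMIs, held Car2 at 185 CPM in WT and 58.7 in KO, and its part in these levels was not tested.

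In the megakaryocyte gate the other genes gave ratios nearer 0. Gata1 was at 60.4 CPM in WT and 66.9 in KO (0.15, -0.24 to 0.53), Zfpm1 at 166 and 183 (0.14, -0.09 to 0.38), and Mfsd2b at 68.2 and 70.1 (0.04, -0.33 to 0.41). Epor was at 20.8 and 21.2 (0.03, -0.67 to 0.72), Aqp1 at 22.2 and 23.8 (0.10, -0.57 to 0.75), Tal1 at 71.6 and 63.7 (-0.17, -0.55 to 0.21), Blvrb at 63.8 and 71.4 (0.16, -0.22 to 0.54) and Klf1 at 7.25 and 8.36 (0.21, -0.99 to 1.38). All 8 intervals include 0, and those of Klf1 and Epor allow a 1.5-fold difference in either direction. Car2 was the only listed gene at least 1.5-fold lower there among those with UMIs in both libraries, where 10.4% of 8277 genes were that much lower. The gate's own markers had a median of 5 UMIs per thinned cell in WT and 6 in KO. Of its 11 markers 8 reached a mean of 1 CPM over all cells, with 1 at least 1.5-fold lower in KO and 2 higher. These include Treml1 (3.96 and 1.58 CPM) and Serpine2 (4.46 and 27.9), named after their values were seen. Whether the cells of this gate are alike in the 2 libraries was not tested.

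In the HSC gate the intervals of the regulators include 0, with Zfpm1 at 80.9 and 84.1 CPM (0.06, -0.22 to 0.33), Tal1 at 51.5 and 54.9 (0.09, -0.26 to 0.43) and Gata1 at 13.0 and 16.9 (0.39, -0.29 to 1.02). Klf1 had 11 and 2 UMIs (-0.70, -3.92 to 1.49), and the intervals of Gata1 and Klf1 allow a 1.5-fold difference. Aqp1 was higher in KO, at 4.49 and 9.93 CPM from 26 and 17 UMIs (1.14, 0.17 to 2.08). Car2 and Aqp1 were the only listed genes in this gate whose intervals did not include 0. Of the gate's 10 markers, 6 were at least 1.5-fold lower over all KO cells and 2 higher, against 12.2% and 4.02% of all genes. These markers had a median of 7 UMIs per thinned cell of the gate in WT and 11 in KO. In the mast cell and basophil gate their medians were 12 and 22. Whether the cells of the HSC gate are alike in the 2 libraries was not tested.

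In the mast cell and basophil gate (157 and 194 cells) Tal1 was higher in KO, at 54.1 and 79.1 CPM (0.55, 0.28 to 0.82), and so was Zfpm1, at 12.2 and 18.8 (0.62, 0.05 to 1.20). Gata1 was at 41.5 and 45.4 (0.13, -0.20 to 0.46) and Blvrb at 106.4 and 110 (0.05, -0.15 to 0.25). The level of Gata1 in this gate was thus near that in the erythroid gate, while Epor and Aqp1 were rare, at 2.85 and 4.18 CPM for Epor and 0.285 and 0.522 for Aqp1.

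Gata1 and Mfsd2b were lower in KO in 3 groups each, the cells of several gates and both groups of no gate. In the non-cycling cells of no gate, Gata1 was at 5.59 and 4.204 CPM (-0.41), Mfsd2b at 4.44 and 2.59 (-0.78), and Aqp1 at 2.51 and 0.794 (-1.66). There Epor was at 1.88 and 1.23 (-0.61), Zfpm1 at 36.6 and 24.7 (-0.57), Tal1 at 31.3 and 22.1 (-0.50) and Blvrb at 31.0 and 23.9 (-0.38). With Car2, 8 of the 10 genes had intervals below 0 in that group, as did 38.1% of 12883 genes. Klf1 was at 1.44 and 1.32 (-0.12, -0.71 to 0.46), and its interval lay on 1 side of 0 in none of the 8 groups.

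Car1 outside the erythroid gate was in few cells. In the non-cycling cells of no gate, 92 UMIs were in 17 WT cells and 193 in 6 KO cells, a log2 ratio of 1.34 (0.97 to 1.71). Up to 45 and 85 of these UMIs were in 1 cell. In WT, all 59 UMIs of the cells in several gates were in 1 cell, and in KO 51 of the 55 UMIs of the cycling cells of no gate were in 1 cell. The ratios of Car1 in these 2 groups therefore rest on 1 cell each.

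**Figure D3:**
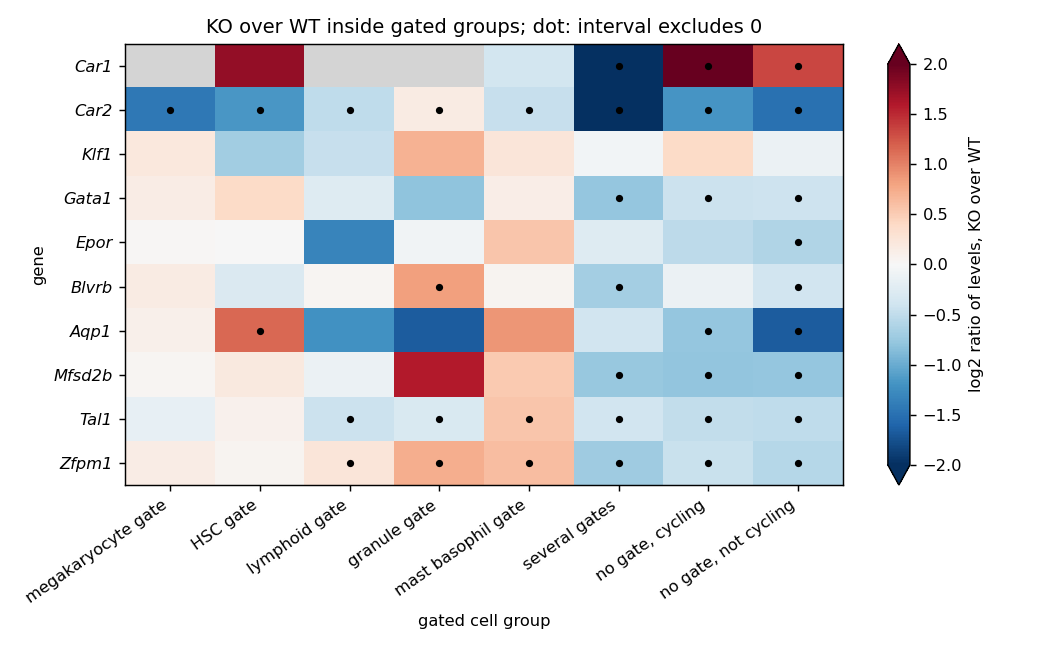
Log2 ratio of the level in KO over WT for each listed gene (vertical) in each gated cell group with at least 50 cells in both libraries (horizontal), as a colour scale, with a dot where the 95% counting interval excludes 0. Car2 is lower in KO in 7 of 8 groups, and in the megakaryocyte gate no dot stands beside that of Car2.

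Because granule-gated cells made up 376 WT and 1668 KO cells, the sums were also taken without them, over 4987 and 3790 cells. Gata1 was then at 9.01 and 8.94 CPM (-0.01, -0.15 to 0.13), and Klf1 at 2.14 and 1.79 (-0.26, -0.56 to 0.04). Car2 stayed apart, at 261 and 104 CPM (-1.33, -1.37 to -1.30), and Car1 at 15.1 and 7.67 (-0.98). Aqp1 (-0.57), Mfsd2b (-0.40), Epor (-0.38), Zfpm1 (-0.36), Tal1 (-0.25) and Blvrb (-0.16) lay between, with intervals below 0. In this sum Gata1 was level between the libraries, although it was lower in KO in 3 of the groups the sum holds, and Car2 was lower.

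The depth of a cell moved with the cell mix. From 8000 to 12000 UMIs, 0.260% of WT and 1.59% of KO cells were in the granule gate, and from 48000 UMIs 45.5% and 78.5%. Car2 was lower in KO in all 5 ranges of depth, from 495 and 210 CPM in the shallowest (-1.24) to 49.2 and 21.004 in the deepest (-1.23), with the widest gap, 187 and 43.2 CPM (-2.11), from 24000 to 48000 UMIs. Blvrb was lower in all 5 as well, by 0.21 to 0.61 on the log2 scale.

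Gata1 changed sides with depth. It was higher in KO in the shallowest cells, at 9.43 CPM in WT and 16.4 in KO (0.80, 0.44 to 1.17), and from 12000 to 16000 UMIs (0.39). It was lower above that, with log2 ratios of -0.42, -1.38 and -1.71. Klf1 ran from 1.31 in the shallowest to -1.42 in the deepest cells. Tal1 and Zfpm1 were almost level in the shallowest cells, at 49.3 and 48.1 CPM for Tal1 and 59.9 and 55.7 for Zfpm1, and lower in KO in the 4 deeper ranges.

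Among barcodes of 4000 to 8000 UMIs, 577 in WT and 833 in KO, Car2 was at 439 and 183 CPM, Gata1 at 13.1 and 18.8, Tal1 at 50.4 and 42.7, and Zfpm1 at 57.2 and 53.8, each in the same order of WT and KO as just above the limit. Epor was not, at 4.93 and 1.57 CPM below the limit and 3.20 and 3.97 above it. Mfsd2b was at 5.75 and 11.7 below and 7.61 and 8.48 above, and Klf1 at 0.548 and 2.15 below and 1.12 and 2.79 above. Car1, which depends on single cells, was at 1.37 and 9.98 CPM there against 6.23 and 3.76 just above the limit.

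**Figure D4:**
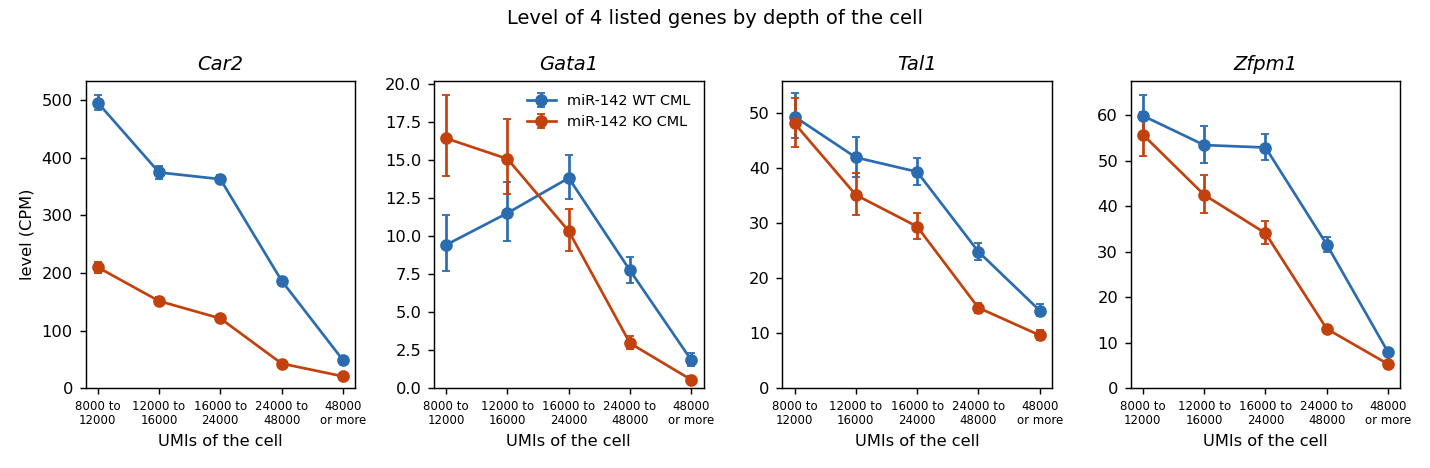
Level in CPM of 4 listed genes in cells of 5 ranges of depth (UMIs of the cell, horizontal), with 95% Poisson intervals, for the WT and KO library. Car2 is lower in KO in every range, and Gata1 is higher in KO from 8000 to 16000 UMIs and lower in deeper cells.

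A small set of cells carried nearly all of the Car1 signal. At least 3 Car1 UMIs after thinning were found in 21 WT cells (0.392%, 0.243 to 0.598) and 11 KO cells (0.202%, 0.101 to 0.360), which held 95.8% and 96.3% of all Car1 UMIs. These cells were chosen by a listed gene, so their Car1 level, 2749 CPM in WT and 2983 in KO, is given only as a description. In WT 16 of the 21 and in KO 4 of the 11 were in the erythroid gate. They also held 39.3% of the Klf1 UMIs in WT and 15.4% in KO.

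The other erythroid genes were high in them in both libraries. Klf1 was at 165 CPM in WT and 143 in KO, 148-fold and 142-fold above all other cells, Aqp1 at 128 and 217, Gata1 at 103 and 78.8, Epor at 61.5 and 59.1, and Mfsd2b at 103 and 118. After thinning, Klf1 was detected in 11 of the 21 WT but only 2 of the 11 KO cells, so its KO level may rest on few cells. Blvrb was at 597 and 606 and Zfpm1 at 125 and 143. Tal1, at 38.3 and 39.4, was only 1.38-fold and 2.17-fold above the other cells. Markers outside the list did so to different degrees: 96.5% and 81.3% of the UMIs of Ermap, which encodes the Scianna blood group protein, and 91.6% and 86.1% of those of Tspo2, an erythroid translocator protein, lay in them. Of Hemgn, another marker of the erythroid gate, they held only 0.761% and 3.03% (all 3 named after their values were seen).

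Between the libraries, the intervals of the ratios in Car1 cells include 0 for 8 of the 9 genes not used to choose them. Car2 was at 1264 CPM in WT and 1211 in KO (-0.06, -0.28 to 0.15), in contrast to 214 and 61.2 in all other cells (-1.80). Aqp1 was higher in KO (0.76, 0.19 to 1.31), from 77 and 44 UMIs. The most Aqp1 UMIs in any cell of the KO library were 23, so this ratio may rest largely on 1 cell. For Gata1 (-0.39, -1.28 to 0.42), Klf1 (-0.21, -0.86 to 0.40) and Epor (-0.06, -1.13 to 0.91) the intervals are too wide to exclude a 1.5-fold difference. The same holds for Mfsd2b (0.20, -0.55 to 0.90), Tal1 (0.04, -1.33 to 1.25) and Zfpm1 (0.19, -0.48 to 0.83).

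Transcripts of Cd34 and of the sort markers Ly6a and Kit were compared between these cells and the others. Cd34 was at 44.9 CPM in WT and 14.8 in KO, against 256 and 199.4 in all other cells. Ly6a was at 15.0 and 73.8 against 97.2 and 153, and Kit at 149.7 and 39.4 against 86.1 and 68.3. Cd34 and Ly6a were thus lower in the Car1 cells of both libraries, in KO from 3 and 15 UMIs. Kit was higher in the Car1 cells of WT. In those of KO its 8 UMIs gave an interval of 17.0 to 77.6 CPM, which includes the level of the other KO cells. Hbb-bt, a beta globin, had 1 UMI in the WT and 244 in the KO Car1 cells. Whether the cells passed the sort as true LSK cells was not tested.

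**Figure D5:**
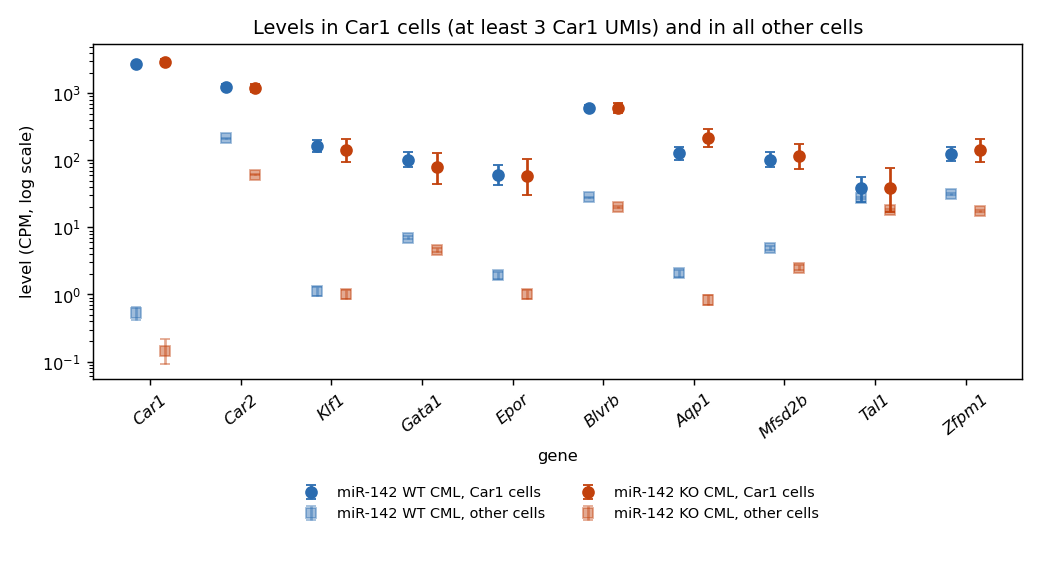
Level in CPM, on a log axis with 95% Poisson intervals, of the listed genes in Car1 cells (at least 3 Car1 UMIs after thinning, 21 in WT and 11 in KO) and in all other cells of each library. Car2 is at 1264 and 1211 CPM in the Car1 cells and at 214 and 61.2 CPM in the other cells, and Tal1 differs least between the kinds of cell.

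Car1 and Car2 lie in a cluster of carbonic anhydrase genes that spans 259044 bases of chromosome 3 and holds 4 protein-coding genes. Car3 (chr3:14863512-14872523, plus strand), which lies directly before Car2, was at 7.56 CPM in WT and 2.04 in KO, a log2 ratio of -1.89. It was lower in KO in all 8 groups, with intervals below 0 in 6. Car13 (chr3:14641727-14663002, plus strand), at the far end, was at 3.27 and 1.85 (-0.82), and was higher in KO in the mast cell and basophil gate, from 11 and 30 UMIs (1.32, 0.29 to 2.47). Both neighbours were named after their values were seen.

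Of 14 other carbonic anhydrases, 5 reached a mean of 1 CPM, with 2 at least 1.5-fold lower (Car3 and Car13) and 1 higher, Car8 (1.94 and 3.52 CPM), against the 12.2% and 4.02% of all genes. Of 25 transcription partners of the listed factors, 23 were at 1 CPM, with 6 lower and 0 higher and a median log2 ratio of -0.33. Among those 6, Cbfa2t3, the ETO2 corepressor of the TAL1 complex, was at 96.3 CPM in WT and 56.8 in KO (-0.76), and Bcl11a, a repressor of fetal globin genes and a factor of early lymphoid cells, was at 97.5 and 48.9 (-0.995). Gata2 (61.2 and 48.8) and Lmo2 (450.4 and 383), named here as core members of the complex, were within 1.5-fold.

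Of 15 genes of erythropoietin signalling, 14 were at 1 CPM, with 3 lower and 0 higher (median -0.27), against 12.2% and 4.02% of all genes. Among them Socs2, a feedback inhibitor induced by STAT5, was at 18.1 CPM in WT and 4.70 in KO (-1.94). Jak2, the kinase of the receptor, was at 14.4 and 10.7 (-0.43), within 1.5-fold. The remaining 11 of the 14 genes were within 1.5-fold.

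Most genes of haem, iron and the red cell membrane were within 1.5-fold. Of 17 genes of haem synthesis and breakdown, 16 were at 1 CPM, with 0 lower and 2 higher (median 0.06), against 12.2% and 4.02% of all genes, and 1 of the 2 was Alas1, the housekeeping first enzyme of haem synthesis, at 82.2 CPM in WT and 158 in KO (0.95). Of 11 genes of iron handling 10 were at 1 CPM, all within 1.5-fold (median 0.16). Of 17 genes of the red cell membrane 6 were at 1 CPM, also all within 1.5-fold.

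Of 9 genes of sphingosine 1-phosphate, the lipid that MFSD2B exports, 7 were at 1 CPM with 1 lower, and of 8 other aquaporins 2 were at 1 CPM with 1 lower. Of the 3 genes of late red cells at 1 CPM, 2 were higher in KO, and Hbb-bt, at 61.0 and 115 CPM (0.91), was among them. Free RNA held Hbb-bt at 91.5 and 162 CPM, and its part in that difference was not tested. Of 12 cycling genes 1, Mki67, was lower (180 and 115 CPM). Over all genes 12.2% were lower and 4.02% higher, and with so few genes to a list these counts are not read further.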

How the data were processed

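Per the labels and the study's methods, LSK cells of 1 miR-142 WT sample and 1 miR-142 KO sample of CML mice (about 8000 captured cells each) were sequenced on the 10x platform and counted with Cell Ranger. The processing notes name version 6.1.2 and mm10, and the file headers name Cell Ranger 4. The authors deposited unfiltered UMI counts per gene and barcode. The study kept barcodes above 300 UMIs and under 10% mitochondrial UMIs, which leaves 8525 WT and 7099 KO barcodes of 1957898 and 2055088, whereas a limit of 8000 UMIs was used here. The cells held 138183896 and 158438757 UMIs.

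UMIs were summed over cells as CPM. UMIs count RNA ends and were not scaled to length, so levels of different genes are not compared as molecules. Levels have exact Poisson, shares exact binomial (Clopper-Pearson) and ratios exact conditional binomial 95% intervals. They cover counting error only, and no test was made because each group is 1 library. No doublet caller was run, and an alternative left out cells over 2 times the median UMIs or in several gates. Scripts used Python 3.11.15, numpy 2.4.6 and scipy 1.17.1 and were tested on simulated data. Named were the 10 listed genes, genes of the lists past 1.5-fold at a mean of at least 10 CPM, and the 5 genes most correlated with the listed genes, of which 1 is not reported here. The members and lists were chosen with earlier results of these data known.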

Additional observations from a re-analysis of the deposited data

Results flagged for a closer look

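Of the 10 genes, 6 were lower in KO beyond counting error in some cell groups and higher in others. None of these differences between groups was tested, since each group of cells comes from 1 library per genotype. The share of all genes that went both ways was not counted. Over all genes, 24.2% of pairs of a gene and a group with at least 30 UMIs lay below 0 and 15.0% above. The 6 are therefore not read as particular to the listed genes. For Car1 the log2 ratio was -4.94 in the cells of several gates and 3.54 in the cycling cells of no gate, and both values rest on the UMIs of 1 cell. For Car2 it was -2.05 in the cells of several gates and 0.17 in the granule gate, where the gene was at its lowest in both libraries. For Blvrb it was -0.67 in the cells of several gates and 0.82 in the granule gate, from 5.50 and 9.71 CPM. For Zfpm1 it was -0.72 in the cells of several gates and 0.73 in the granule gate, from 2.60 and 4.32 CPM. For Tal1 it was -0.50 in the non-cycling cells of no gate and 0.55 in the mast cell and basophil gate. For Aqp1 it was -1.66 in the non-cycling cells of no gate and 1.14 in the HSC gate, the latter from 26 and 17 UMIs.

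Among the barcodes of 1000 to 8000 UMIs, which the comparisons above leave out, at least 3 Car1 UMIs were found in 2 of 1295 WT barcodes (0.154%) and 1 of 1253 KO barcodes (0.0798%). These barcodes also held 33 and 11 Car2 UMIs and 9 and 8 Blvrb UMIs.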

How the results depend on the processing

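No paired analysis was possible because each group is 1 library, so that the groups share fewer than 2 replicate numbers. The median log2 ratio of the 10 genes, -0.94, was -1.28 at a limit of 16000 UMIs, -0.28 with both libraries weighted to 1 mix of cell groups, -0.75 without the erythroid and megakaryocyte gates, and -0.59 with every cell thinned to 8000 UMIs. The 1 mix holds the 8 groups with at least 50 cells in both libraries, so it leaves out the erythroid gate. That gate held 88.1% and 53.4% of the Car1 UMIs and 38.9% and 13.8% of those of Klf1. The count of 9 genes at least 1.5-fold lower was 1 (Car2) under the 1 mix of groups, where 6.02% of all genes were that much lower. It was 5 with thinning (12.7% of all genes), and 3 of 4 at a floor of 10 CPM (4.85%). The 1 mix depends on the gates: in an alternative added after seeing the data, gates were built without the 46 markers at least 2-fold apart between the libraries. The median was then -0.89 and the count 9 (10.8% of all genes), with 7 of the 19 erythroid markers left and 5 groups weighted. The granule gate kept only Mpo, Prtn3 and Srgn, all of them needed to pass it. How well these gates still separate the granule cells was not tested, so these values are not read as a mix made equal. Without the Car1 cells, also added, the median and count were -0.90 and 7 (12.2%). Without cells over 2 times the median UMIs or in several gates they were -0.97 and 10, where 18.9% of all genes were that much lower. The difference in the share of cells in the erythroid gate, -1.65 percentage points, was -0.244 with 1 marker more, -5.55 with 1 fewer, -0.000119 at 1000 UMIs (1 cell in each library) and -0.0402 without those 46 markers. The median difference in detection, -1.28 points, was -2.60 without thinning. Reversed were Car1 (0.47) and Klf1 (0.11) under the 1 mix, which holds no cells of the erythroid gate. Car1 was also reversed (0.23, -0.03 to 0.50) without the erythroid and megakaryocyte gates, and Klf1 (0.040) with thinning. Car2 stayed at least 1.5-fold lower in all 9 settings, from -1.99 to -1.17. Depth limits Klf1, Epor and Aqp1, with under 370 UMIs per library, most.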

Other observations

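Among the 5 genes whose thinned counts followed the summed count of the 10 listed genes most closely from cell to cell, of 10907 genes and over 5363 WT and 5458 KO cells, were Ctla2a, Apoe, Nrgn and Xist. Ctla2a, a cathepsin inhibitor homologue, had a Pearson r of 0.63 in WT and 0.59 in KO, and Apoe, apolipoprotein E, had 0.54 and 0.45. Nrgn had 0.45 and 0.43, and Xist had 0.40 and 0.42. The sum is mostly Car2, and the cells of a library share its free RNA, so these values describe the cells and were not tested.

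For single genes the closest partners differed. Itga2b, the integrin of megakaryocytes, was first for Gata1 (0.27 in WT and 0.35 in KO) and Apoe for Zfpm1 (0.35 and 0.37). Blvrb had Cyp11a1, Fcer1a and Cpa3, genes of mast cells and basophils, among its closest 5, with r from 0.21 to 0.28. Car1, Klf1 and Aqp1 shared the same first gene, Gm15915 (0.46 and 0.54 for Car1). These partners were named after their values were seen.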
